A study of Mus musculus with 4 samples.

Results

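Interferon-responsive microglia were examined as 100 of 13002 cells kept after quality control. They were selected on measured values. A cell was a member when its UMIs (unique molecular identifiers, each standing for 1 captured transcript) of Ifit1, Ifit2, Ifit3, Ifit3b, Isg15, Irf7, Oasl2, Rtp4 and Usp18 summed to 4 or more over at least 2 of these genes, and when its UMIs of the class II genes Cd74, H2-Aa, H2-Ab1 and H2-Eb1 stayed below 10. All other kept cells of the same library served as the comparison. The cells came from the cortex and hippocampus of 4 male C57BL/6J mice aged 90 days, with 1 library per mouse (n = 4). The labels give all mice the same treatment, PBS through a tail vein with 24 hours to sacrifice, and the study's methods state a different interval, so the time is uncertain. Tissue was dissociated by cold Dounce homogenization, which is mechanical and uses no enzyme, and live CD45+/CD11b+ cells were sorted before capture with 10x Genomics 3′ chemistry. This gate also admits border-associated macrophages and monocytes. There was 1 group and no untreated, interferon-treated or receptor-deficient mouse, so each comparison is between cells of the same mouse.

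Type I interferons are secreted proteins that bind a receptor of the subunits Ifnar1 and Ifnar2. The receptor's kinases activate transcription factors, Irf9 in their complex, that switch on genes that carry an interferon-stimulated response element in their promoters. The products block viral entry, replication and translation, and some, such as Usp18, dampen the receptor itself. Small sets of microglia with these transcripts are known from healthy brains, and larger ones from infection, ageing, demyelination and amyloid disease.

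The response element can be read in the promoters of the genes that chose the cells and of genes that were higher in them. The core motif searched was GAAANNGAAA on either strand (TTTCNNTTTC when read on the gene's strand), in RefSeq windows of 300 bases from 250 before to 50 after the transcription start on GRCm38.p6. Stretches around the matches are shown for the genes of the rule that held the motif and for some of the genes described below that did, while others lacked it or had no window. Matches are in capitals, and all are written on the strand of the gene.
Isg15 (chr4:156200863-156200908, reverse strand): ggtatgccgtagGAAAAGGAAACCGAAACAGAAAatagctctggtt
Ifit1 (chr19:34640773-34640825, forward strand): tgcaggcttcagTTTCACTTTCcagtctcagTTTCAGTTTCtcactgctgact
Ifit3 (chr19:34583361-34583428, forward strand): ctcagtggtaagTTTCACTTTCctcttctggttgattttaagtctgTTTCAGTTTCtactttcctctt
Ifit3b (chr19:34607757-34607824, forward strand): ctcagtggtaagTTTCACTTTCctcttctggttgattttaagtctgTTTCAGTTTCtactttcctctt
Rsad2 (chr12:26456551-26456584, reverse strand): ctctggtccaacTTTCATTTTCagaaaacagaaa
Bst2 (chr8:71537575-71537614, reverse strand): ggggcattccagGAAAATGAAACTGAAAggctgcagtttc
Gbp2 (chr3:142620592-142620625, forward strand): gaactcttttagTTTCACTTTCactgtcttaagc
Irgm1 (chr11:48871423-48871462, reverse strand): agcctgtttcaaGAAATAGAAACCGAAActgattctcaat
Isg15 held 3 overlapping matches, and Ifit1, Ifit3, Ifit3b, Bst2 and Irgm1 held 2 each, which overlap in Bst2 and Irgm1. The stretches of Ifit3 and Ifit3b were identical at 68 of 68 bases. The 3′ reads of such near-identical copies cannot always be assigned, so the split of UMIs between Ifit3 and Ifit3b is uncertain.

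Of the 9 interferon genes of the rule, 7 had a promoter window and 4 of these held the motif, each with at least 2 matches. Among the 80 genes that were called higher in the members by the test given below, 60 had a window and 22 held it (36.7%), against 1079 of 27025 genes with a window in all (3.99%) and 107 of 2412 genes tested (4.44%). At least 2 matches, overlapping ones included, occurred in 5 of the 60 (8.33%) and in 0.266% of all. None of the 5 genes that were lower and had a window held it, nor did any of the 14 microglial identity genes with one. A match is a description of letters and not a site of binding.

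The 4 libraries held 13138 barcodes, and 3576, 3692, 2576 and 3158 cells were kept in replicates 1 to 4. The numbers only name the libraries. Depth differed, with a median of 1903, 2936, 2194 and 2785 UMIs per cell among the other cells. Replicate 4 carried more of the ex vivo activation genes (exAM, the dissociation-linked list of the study), which summed to 2753, 2826, 2885 and 4646 CPM (counts per 1000000) in the other cells of replicates 1 to 4, and the share of members and the numbers of genes called were also computed without it. Per the study's methods, a clogged sorter interrupted the last animal and its cells spent longer at room temperature. The study calls this animal Sample 4 and reports that the exAM genes were induced in it and not in its other replicates. Replicate 4 here had the highest exAM sum and the last number in the sample titles. The labels do not name the interrupted animal, so the interruption was assigned to no library here, and its part in the results was not tested. From 6 to 21 barcodes were shared between pairs of libraries, and 2 members carried such a barcode.

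The members were rare in every mouse. They numbered 33, 32, 14 and 21 cells, or 0.923%, 0.867%, 0.543% and 0.665% of the kept cells in replicates 1 to 4 (0.750% ± 0.176, SD, n = 4, and 0.778% ± 0.205 without replicate 4). The exact 95% Clopper-Pearson intervals, which cover counting error only, reached from 0.636% to 1.29% in replicate 1 and from 0.297% to 0.910% in replicate 3. The intervals of all 4 libraries overlapped. Because a deeper cell reaches 4 UMIs more easily, each cell was also thinned to 1000 UMIs, which left out 265 shallower cells. Then 19, 13, 7 and 5 cells met the rule, or 0.544%, 0.354%, 0.281% and 0.162% (0.335% ± 0.160). The order of the replicates changed with thinning, so the shares of replicates 3 and 4 do not have a fixed order.

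**Figure D1:**
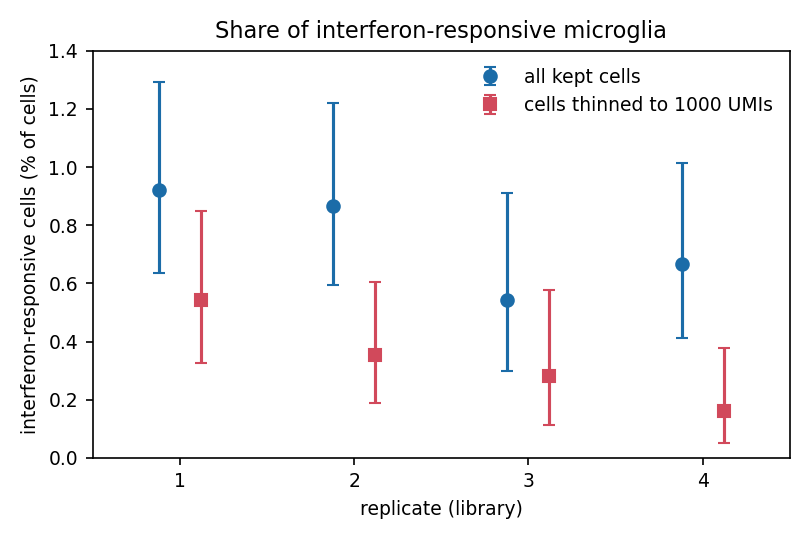
Share of kept cells that met the interferon rule (y axis, %) in each of 4 libraries (x axis), with all UMIs (circles) and after thinning to 1000 UMIs per cell (squares), and bars are exact 95% Clopper-Pearson intervals. The shares run from 0.543% to 0.923% with all UMIs and from 0.162% to 0.544% after thinning, and the intervals of the libraries overlap within each series.

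The members were not much deeper than their neighbors. Their median UMI count was 2054, 3052, 2269.5 and 3139, against 1903, 2936, 2194 and 2785 in the others, and their median mitochondrial share was 1.58, 1.39, 1.16 and 1.43%, against 1.38, 1.26, 1.12 and 1.18%. A single member of replicate 2 reached 15815 UMIs. No doublets were called, and the closing section gives the counts with the deepest 1% of cells left out.

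Within the class the number of interferon-gene UMIs varied widely, described here with no adjustment for depth and on the genes that chose the cells. The members held a median of 7 UMIs of the 9 genes and a range of 4 to 74, with 36 cells at 4 to 5, 36 at 6 to 9 and 28 at 10 or more. At the edge of the rule, 24 members held exactly 4 UMIs and 61 cells outside held 3. A further 3 cells, all in replicate 2, held at least 4 UMIs of 1 gene only and were not members. The members held 47.6, 45, 51.4 and 31.4% of all UMIs of the 9 genes in replicates 1 to 4 (43.9% ± 8.73), while holding 0.962% of all UMIs. Most remaining UMIs lay singly, since 89% to 93.6% of the other cells held 0 and 5.31% to 8.77% held 1.

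Levels of the 9 genes chose the cells and are given as a description, without a test. Rtp4, a chaperone of membrane receptors that also restrains viruses, was the gene found in most members (87 of 100), with 800.4, 499, 991 and 643 CPM in members and 25.6, 18.5, 13.8 and 15.6 CPM in other cells. Isg15, a ubiquitin-like protein that is attached to other proteins, was found in 74, with 1112, 573, 1245 and 599 CPM against 13.2, 12.9, 10.7 and 13.7 CPM. Ifit3, which binds viral RNA together with Ifit1, was found in 66 and gave the most UMIs (268), with 1099, 756, 1194 and 540.4 CPM against 5.3, 4.58, 3.1 and 4.93 CPM. Rtp4 and Isg15 were thus present at a low level outside the members as well, and Ifit3 less so.

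The part of each gene's UMIs that fell in these 100 cells differed between genes. For Ifit3 it was 68.6, 66.9, 72.3 and 45.7% in replicates 1 to 4, with an exact 95% interval of 59.5% to 76.9% in replicate 1 and of 34.6% to 57.1% in replicate 4. For Isg15 it was 47.1, 35.1, 44.1 and 25.2%. For Rtp4 it was 24.8, 24.8, 32.8 and 24%. For Ifit3b it was 88.5, 80, 90.9 and 86.7%. Replicate 4 had the lowest share for Ifit3, Isg15 and Rtp4. The other rule genes were found in 30 to 43 members each. These were Ifit1 and Ifit2 (37 and 30 members), Irf7, the factor that amplifies interferon production (40), Oasl2, a 2′-5′ oligoadenylate synthetase-like protein (43), Usp18, which removes Isg15 and dampens the receptor (40), and Ifit3b (34).

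Cells were also chosen on Ifit1, Ifit2, Ifit3 and Ifit3b alone (2 or more UMIs), which left out the other 5 genes. This gave 25, 25, 11 and 13 cells, of which 20, 20, 11 and 8 were members by the full rule. Levels of the other 5 in these cells are a description with no test, since most of the cells were members and each gene was below 50 CPM in the remaining cells. Isg15 stood at 1132, 751, 1342 and 602 CPM against 15.4, 13.7, 11.7 and 15.5 CPM in the remaining cells. Oasl2 stood at 343, 239.5, 468 and 251 CPM against 3.0, 2.06, 2.24 and 2.35 CPM. Usp18, Irf7 and Rtp4 stood at 326, 305, 530.5 and 351, at 240.2, 207, 593 and 125 and at 566, 523, 999 and 351 CPM, against 5.29, 3.76, 1.89 and 3.46, 6.43, 3.58, 2.24 and 5.92 and 29.3, 20.2, 15 and 18.9 CPM. Each of the 5 was higher in the chosen cells of every library.

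Genes outside the rule were then compared between members and other cells of the same library. Counts were summed over each, giving 8 sums, the 13 genes of the rule were removed from the totals and the test, and a gene was called at an adjusted p below 0.05 in edgeR with a log2 fold change past 0.58. Of 3096 genes tested, 80 were higher in the members (2.58%) and 6 were lower (0.194%). Without replicate 4 these were 91 and 4. Of the 80, 71 were higher in 4 of 4 libraries and 63 were more than 1 log2 unit higher. The values of members and others did not overlap for 68 of them, against 10.6% of all genes tested in either direction. A gene was tested at a mean of 50 CPM over the 8 sums, and 42 of the 80 reached that only through their level in the members. Among the 2926 genes with at least 50 CPM in the other cells alone, 38 were higher (1.30%).

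Of the 80 genes that rose, 36 were on a list of genes known to be induced by interferon. The list of 89 such genes outside the rule (antiviral effectors, enzymes of Isg15 and ADP-ribose conjugation, and GTPases) had 86 in the gene table and 40 tested, of which 36 rose and 0 fell. Of the 14 that would have been tested on their level in the other cells alone, 12 rose, with a median log2 fold change of 1.30 over the 14, beside a median of 0.00 over all genes tested. The list summed to 18029, 9957, 14685 and 11422 CPM in the members of replicates 1 to 4, and to 4749.5, 4324, 4423 and 4653 CPM in the others. The lowest member sum was above the highest sum of the others.

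**Figure D2:**
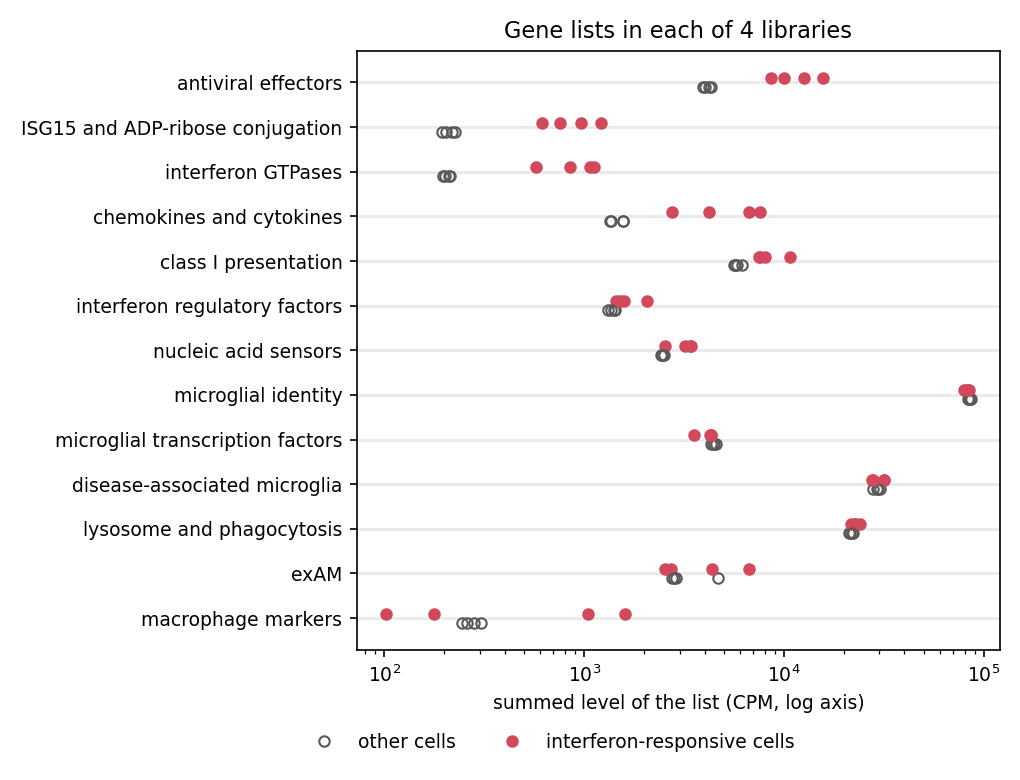
Summed level of 13 gene lists (x axis, CPM, log scale) in interferon-responsive cells (filled points) and other cells (open points), with 1 point per library (n = 4). Antiviral effectors, conjugation enzymes, interferon GTPases, chemokines and class I genes lie higher in the members of every library, while microglial identity, disease-associated and lysosomal genes lie close together and macrophage markers spread from 102.2 to 1608 CPM.

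Antiviral effectors formed the largest group. Of 64 listed, 61 were in the table, 31 were tested and 27 rose, and 10 of 12 rose among those with 50 CPM or more in the other cells. Rsad2 (viperin, which makes a chain-terminating nucleotide) had the largest change. It stood at 203, 73.4, 229 and 58.4 CPM in the members and at 0.287, 0.27, 0.517 and 0.897 CPM in the others (log2 fold change 7.94 ± 0.89 (SE), adjusted p = 2.35e-08). It rested on 38 UMIs in 17 members, beside 10 of the 12902 other cells, and 88.2, 76.9, 75 and 33.3% of its UMIs lay in the members. Its fold is therefore imprecise, although the groups did not overlap.

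Ifitm3, a membrane protein that blocks viral fusion, was present in many more of the cells. Its level was 1438, 602, 686 and 409 CPM against 51.2, 26.2, 41 and 53.1 CPM (4.22 ± 0.20 (SE), adjusted p = 5.2e-19), and 68 of 100 members held a UMI, beside 4.12% of the others. Bst2 (tetherin), which holds budding virus at the cell surface, stood at 1357, 455, 788 and 847 CPM against 179.7, 157, 159 and 164 CPM (2.30 ± 0.15 (SE), adjusted p = 1.18e-14). It was found in 75 members and in 32% of the others. Ly6e, which restricts coronavirus entry, stood at 3310.1, 1873, 2388 and 2279 CPM against 1416, 1186, 1140.3 and 1201 CPM (0.97 ± 0.09 (SE), adjusted p = 4.95e-11) and had a UMI in 100 of 100 members. In all 3 genes the lowest member value exceeded the highest value of the others. The 67 cells with 10 or more class II UMIs held Ifitm3 in 67.2% and Bst2 in 77.6%, near the shares in the members. Their median was 3288 UMIs per cell, against 2596 in the members. Detection of Ifitm3 and Bst2 therefore does not set the members apart from these cells. Rsad2 was found in 4.48% of them.

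Ifi204, of the Ifi200 family of DNA-binding proteins, stood at 448, 198, 534 and 248 CPM against 9.31, 7.01, 5.35 and 8.63 CPM (5.44 ± 0.47 (SE), adjusted p = 2.9e-11), and Pyhin1, of the same family, at 258, 36.7, 178 and 73 CPM against 5.88, 3.33, 2.59 and 3.59 CPM (4.87 ± 0.67 (SE), adjusted p = 1.32e-06). Oas1a, which makes the 2′-5′ oligoadenylates that start RNA decay, stood at 217, 66.1, 76.2 and 58.4 CPM against 5.73, 3.41, 2.07 and 3.03 CPM (4.74 ± 0.68 (SE), adjusted p = 3.42e-06). Replicate 1 was high in Oas1a, and the other members still lay above every value of the others. Ly6a (Sca-1), a surface protein induced by interferons, changed by 4.28, adjusted p = 2.35e-08, Fgl2, a fibrinogen-like secreted protein, by 4.27, adjusted p = 3.9e-06, and Ifi27l2a, an interferon-induced mitochondrial protein, by 3.30, adjusted p = 2.86e-08. Ifi27l2a was found in 32% of the members and 3.23% of the others. It was found in 56.7% of the cells kept out of the members for their class II UMIs, which were deeper as given above. Detection of Ifi27l2a therefore does not set the members apart from those cells either. Sp100, a component of nuclear bodies, changed by 3.41, adjusted p = 1.46e-06, and Rnf213, a very large ubiquitin ligase, by 3.37, adjusted p = 2.99e-05, both on the log2 scale. Slfn2, of the Schlafen family, was even across libraries at 379.9, 367, 457 and 379.8 CPM against 55.6, 49.7, 38.8 and 43.8 CPM (3.0 ± 0.18 (SE), adjusted p = 9.13e-16). All of these were higher in 4 of 4 libraries, but without replicate 1 Pyhin1, Oas1a and Fgl2 fell below the level for testing.

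**Figure D3:**
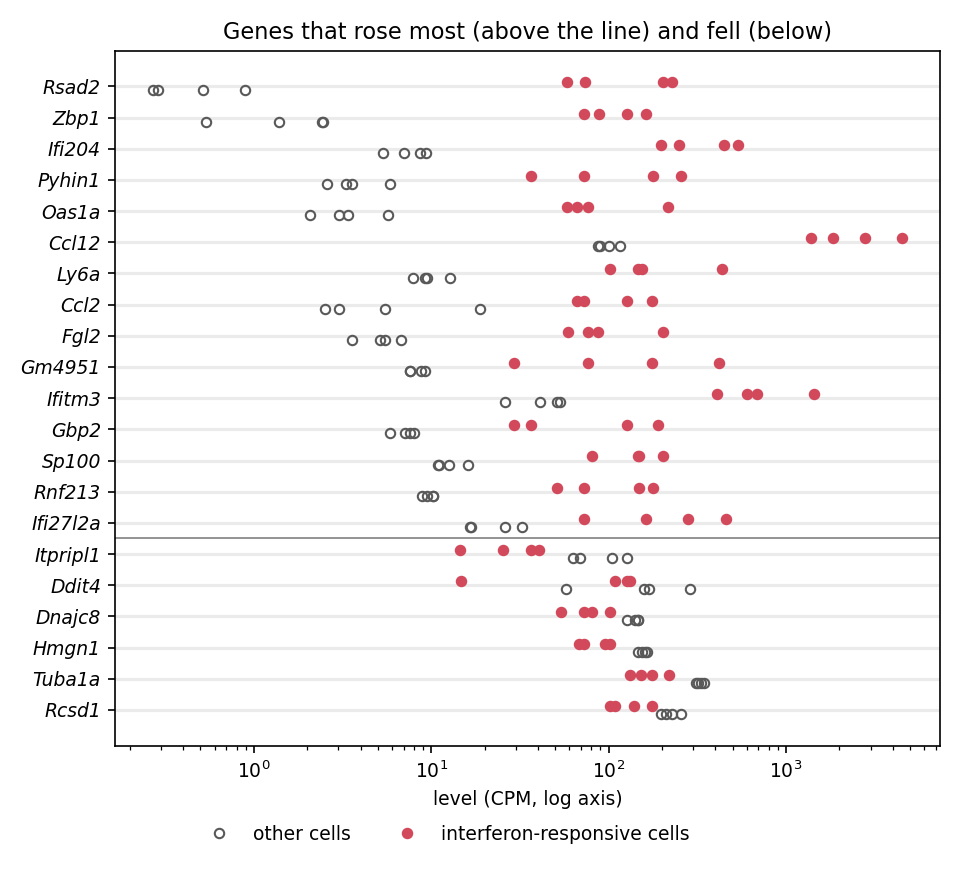
Level (x axis, CPM, log scale) of the 15 genes with the largest rise and the 6 genes that fell, outside the rule and in 4 of 4 libraries, in interferon-responsive cells (filled points) and other cells (open points), 1 point per library. The filled points of the 15 lie to the right of all open points of the gene, and those of the 6 lie to the left within each library, with an overlap between libraries for Ddit4. Both sets were chosen for moving the same way in every library, so separation within a library is no result. Of the 15, all but Ccl12 averaged below 50 CPM in the other cells and were tested only through the members.

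Enzymes that attach Isg15 or ADP-ribose were among the risers. Of 9 listed, 5 were tested and 5 rose, all of them at less than 50 CPM in the other cells, so that their being tested depended on the members and their count says nothing of the list. They were Ube2l6, the conjugating enzyme of Isg15 (2.98, adjusted p = 4.25e-06), Herc6, its ligase in mice (2.71, adjusted p = 1.43e-05), and the ADP-ribosyltransferases Parp14 (2.56, adjusted p = 1.3e-06), Parp9 (1.96, adjusted p = 0.000359) and Parp12 (1.65, adjusted p = 0.00682), whose call was lost without replicate 1 or 2. The list summed to 1221, 756, 965 and 613 CPM in members and 226, 203, 194 and 217 CPM in others. Interferon GTPases, which attack the vacuoles of pathogens, had 4 of 16 members tested and 4 that rose, 2 of 2 among those with 50 CPM or more in the others. Gbp2 stood at 189.9, 36.7, 127 and 29.2 CPM against 8.02, 5.84, 7.07 and 7.62 CPM (3.51 ± 0.64 (SE), adjusted p = 0.000199). Irgm1 stood at 217, 139.5, 152 and 219 CPM against 37.4, 29.3, 35.7 and 37.9 CPM (2.38 ± 0.30 (SE), adjusted p = 2.51e-07), and Igtp and Gbp7 changed by 1.84 and 1.15, with the call of Gbp7 lost without replicate 4. Gbp2 fell below the level for testing without replicate 1 or 3. The library sums of both lists did not overlap between members and others. With the members of 4 to 9 UMIs alone, an alternative added after seeing the data, 3 of the 4 GTPases and 2 of the 5 conjugation enzymes still had the level for testing. Irgm1 then had a log2 fold change of 1.51 (adjusted p = 0.0642), higher in 4 of 4 libraries, Igtp 0.99 (adjusted p = 0.334) and Gbp7 0.68 (adjusted p = 0.676), and none was called. Parp14 (1.82, adjusted p = 0.0201) and Parp9 (1.63, adjusted p = 0.0498) were called.

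Upstream of these targets, the ligands were not detected. The 12 listed interferon genes, Ifnb1 and Ifng among them, held 0 UMIs in the 318959 UMIs of the members and 0 in the other cells, and 3 UMIs, the most that a count of 0 allows at 95%, correspond to 9.41 CPM in the members. The receptor subunit Ifnar1 stood at 122, 80.8, 152 and 117 CPM against 82.8, 78.5, 78.1 and 78.9 CPM (0.45 ± 0.27 (SE), adjusted p = 0.652), and Ifnar2 at 366, 242, 229 and 307 CPM against 295, 277, 308 and 255 CPM (0.03 ± 0.16 (SE), adjusted p = 0.995). Neither passed the test, and the members' values overlapped those of the others.

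Stat2, a transcription factor of the complex, was below the level for testing, with 7, 8, 1 and 8 UMIs in the members of replicates 1 to 4 and 82, 82, 67 and 83 in the others. Irf9, which binds the response element, stood at 67.8, 117, 152 and 87.6 CPM against 58, 54.3, 47.2 and 50.8 CPM (0.97 ± 0.29 (SE), adjusted p = 0.0616), higher in 4 of 4 libraries and short of the threshold. Ifngr1, a receptor subunit of the other interferon type, stood at 1112, 1241, 991 and 1256 CPM against 1465, 1475, 1453 and 1442 CPM (-0.32 ± 0.09 (SE), adjusted p = 0.0396), a difference under the fold that was required. Among 9 interferon regulatory factors, Irf7 included, 5 were tested, 0 of 4 rose among those with 50 CPM or more in the others, and Irf1, below that level in the others, rose, at 95, 117, 152 and 117 CPM against 37.3, 36.8, 37.8 and 35.5 CPM (1.68 ± 0.34 (SE), adjusted p = 0.000819), while Irf8, a factor microglia need in general, changed by 0.31, adjusted p = 0.244.

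Of 23 genes listed as sensors of foreign nucleic acids, 10 were tested and 4 rose. Among the 7 with 50 CPM or more in the others, 1 rose, which was Samhd1, and the median log2 fold change was -0.08. Zbp1, Ifih1 and Tlr3 were below 50 CPM in the others and were tested only through the members, so their calls say nothing of the list. Zbp1, which senses Z-form nucleic acids, stood at 163, 88.1, 127 and 73 CPM against 2.44, 0.539, 1.38 and 2.47 CPM (6.15 ± 0.76 (SE), adjusted p = 1.93e-07), from 23 members. Ifih1 (MDA5), a sensor of long double-stranded RNA, changed by 2.73, adjusted p = 0.000308, Tlr3 by 1.61, adjusted p = 0.0109 and Samhd1, which depletes nucleotides, by 1.09, adjusted p = 0.00695. Unc93b1, the escort of endosomal Toll-like receptors, stood at 1519, 1373, 1804 and 1709 CPM against 1350.4, 1372, 1427 and 1493 CPM (0.17 ± 0.09 (SE), adjusted p = 0.525), and Tmem173 (STING) changed by -0.15, adjusted p = 0.822. The call of Tlr3 was lost without replicate 4 and that of Samhd1 without replicate 1 or 2. Zbp1 and Ifih1 fell below the level for testing without replicate 1.

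Class I antigen presentation was higher by a smaller factor. Of 21 listed genes, 15 were tested, all 15 had a positive log2 fold change and 5 rose, and 4 of 13 rose among those with 50 CPM or more in the others. They were Tap1, which pumps peptides into the endoplasmic reticulum (1.68, adjusted p = 0.00226), the nonclassical class I gene H2-T23 (1.0, adjusted p = 0.0102), the immunoproteasome subunit Psmb8 (0.80, adjusted p = 8.13e-05) and the proteasome activators Psme1 (0.90, adjusted p = 0.000197) and Psme2 (0.74, adjusted p = 0.00429). B2m, the light chain shared by class I molecules, stood at 5549, 4237, 4192 and 4294 CPM against 3528, 3363, 3263 and 3219.8 CPM (0.45 ± 0.06 (SE), adjusted p = 3.45e-06). Its values did not overlap and its adjusted p passed, but the change was under the fold that was required. H2-D1 stood at 1547, 683, 915 and 643 CPM against 756, 643, 588 and 587 CPM (0.49 ± 0.13 (SE), adjusted p = 0.0159), likewise under that fold, and class I genes share much sequence. The list summed to 10744, 7519, 8029 and 7552 CPM against 6182, 5840, 5670.2 and 5594 CPM, with replicate 1 highest. The call of Tap1 was lost without replicate 2, that of H2-T23 without replicate 1 and that of Psme2 without replicate 1 or 2.

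Of 8 class II genes outside the rule, 5 were tested by edgeR and 0 were called, with H2-Oa at 0.60, adjusted p = 0.503 and H2-DMa at -0.17, adjusted p = 0.83. The limit on class II UMIs is part of the rule, so a low class II level in the members is no result.

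Among secreted signals, Ccl12, a ligand of the receptor Ccr2, was the most abundant riser. It stood at 4531, 2805, 1855 and 1388 CPM in the members and 89.3, 87.4, 101 and 116 CPM in the others (4.71 ± 0.18 (SE), adjusted p = 4.59e-22). The members held 884 of its UMIs in 60 cells, and a UMI was also seen in 17% of the others. Its UMIs fell in the members for 34.9, 28.2, 11.1 and 8.39% in replicates 1 to 4, with exact 95% intervals of 31.9% to 38% in replicate 1 and 6.84% to 10.2% in replicate 4. Ccl2, of the same family, stood at 176, 66.1, 127 and 73 CPM against 3.01, 2.52, 5.52 and 18.9 CPM (4.28 ± 0.63 (SE), adjusted p = 5.22e-06), from 32 UMIs in 15 members. Without replicate 1, Ccl2 fell below the level for testing. Of 24 chemokines and cytokines listed, 10 were tested and 5 rose, 2 of 7 among those with 50 CPM or more in the others.

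The other calls in this group were less secure. Ccl4 and Ccl3, which attract leukocytes, were called (3.35, adjusted p = 4.99e-05 and 2.37, adjusted p = 0.00682), but 1 cell of replicate 3 held 91.7% of the members' Ccl4 UMIs and 83.3% of their Ccl3 UMIs. In replicate 3 no other member held a UMI of Ccl4. The remaining members held Ccl4 at 13.6 CPM in replicate 1, 7.34 CPM in replicate 2 and 117 CPM in replicate 4, against 11.5, 9.62 and 26.5 CPM in the others. DESeq2 called neither, with log2 fold changes of 1.94 and 0.97. Cxcl16, a chemokine with a membrane-bound form, changed by 1.02, adjusted p = 0.0205, and its call was lost without replicate 1 or 3. Cxcl10, a widely used interferon marker, was below the level for testing, with 23, 7, 0 and 0 UMIs in the members and 6, 0, 0 and 1 in the others.

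Genes outside the rule are described here by the number of interferon-gene UMIs in a cell, with no test and with cells of fewer than 10 class II UMIs. Antiviral effectors summed to 4009 ± 156 CPM (SD, n = 4) in cells with 0 such UMIs, to 6489.5 ± 729.6 CPM in the 210 cells with 2 to 3, which are not members, to 10667 ± 1999.6 CPM with 6 to 9 and to 19349 ± 2967 CPM with 10 or more. The mean over libraries was higher in each bin than in the one before, although replicates 2 and 4 were slightly lower at 4 to 5 than at 2 to 3. Interferon GTPases stood at 202 ± 7.86, 343 ± 64.3, 295 ± 85 and 482 ± 187 CPM in cells with 0, 2 to 3, 4 to 5 and 6 to 9 UMIs, and at 2594 ± 995 CPM at 10 or more. The chemokine list stood at 1445 ± 126, 1739 ± 185, 1576 ± 218, 2000.5 ± 484 and 14261 ± 4339 CPM at 0, 2 to 3, 4 to 5, 6 to 9 and 10 or more. The last of these contains the single cell of replicate 3 with most Ccl4 UMIs. Without it, an alternative added after seeing the data, the chemokine list stood at 11623 ± 4183 CPM, and replicate 3 at 7855 in place of 18407 CPM. The median depth was 1889, 2901, 2179.5 and 2753.5 UMIs per cell at 0 and 2347, 2974, 2604 and 2750 at 10 or more, higher at 10 or more in replicates 1 and 3 and nearly equal in the others, and its part in these levels was not tested.

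**Figure D4:**
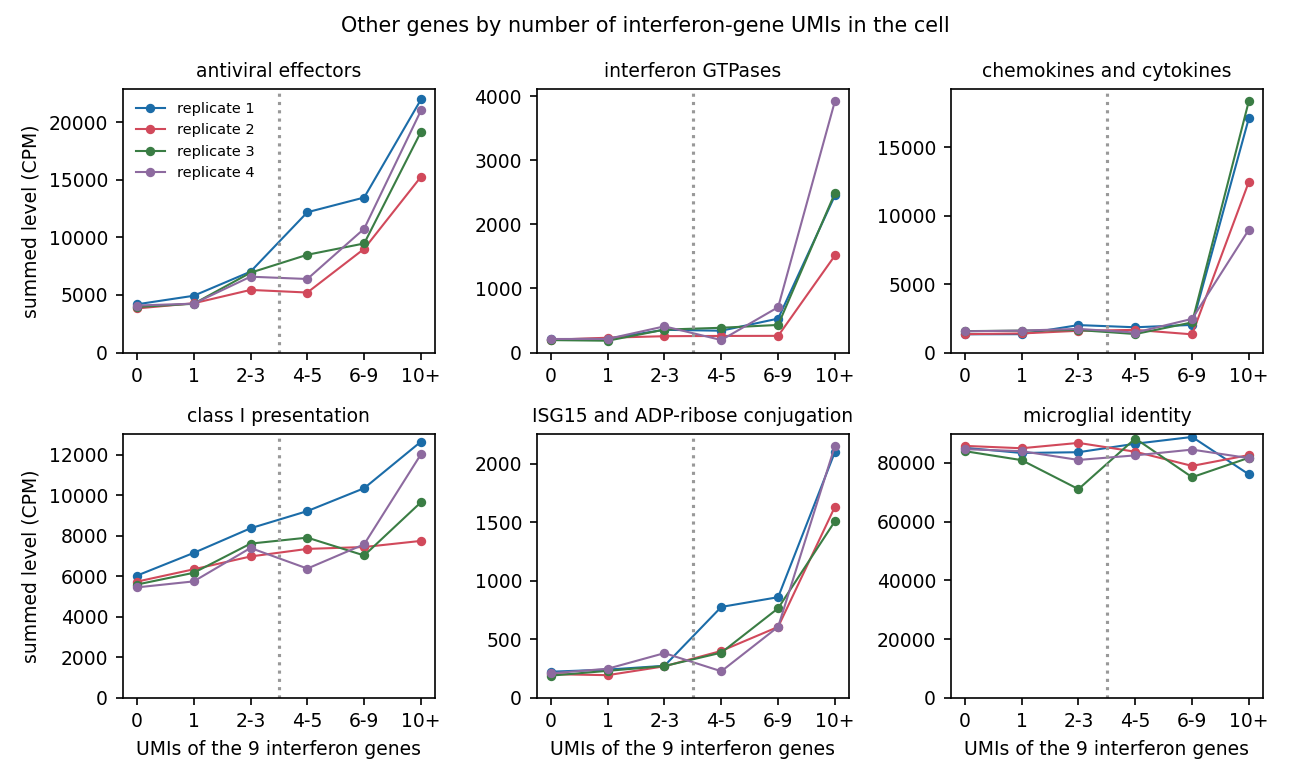
Summed level (y axis, CPM) of 6 gene lists in cells binned by their UMIs of the 9 interferon genes (x axis), 1 line per library. The dotted line is at the rule's edge of 4 UMIs, without its 2-gene condition. The mean of antiviral effectors climbs through all bins, with a slight dip across the edge in replicates 2 and 4, interferon GTPases and chemokines are highest at 10 or more UMIs in every library (with 1 cell of replicate 3 carrying most of its chemokine value), and microglial identity genes stay between 71082 and 88862 CPM.

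Single genes are described over the same bins, with no test. Ccl12 was found in 16.6% of cells with 0 interferon-gene UMIs, 29.5% of those with 2 to 3, 41% of those with 4 to 5, 52.8% of those with 6 to 9 and 92.9% of the 28 with 10 or more. Its level was 91.9 ± 14.2 CPM at 0 and 306 ± 136 CPM at 2 to 3. It went from 688 ± 522 to 8607 ± 4144 CPM between the last bins, and 762 of the members' 884 UMIs came from these 28 cells. Rsad2 was found in 5.13%, 11.1% and 39.3% of the cells with 4 to 5, 6 to 9 and 10 or more, and Gbp2 in 5.13%, 2.78% and 39.3%. Ifitm3 and Slfn2 were found in 21% and 39% of the nonmember cells with 2 to 3 UMIs, beside 3.25% and 8.05% of those with 0. Irf9 was found in 31.4% of the cells with 2 to 3 and in 32.1% of those with 10 or more.

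**Figure D5:**
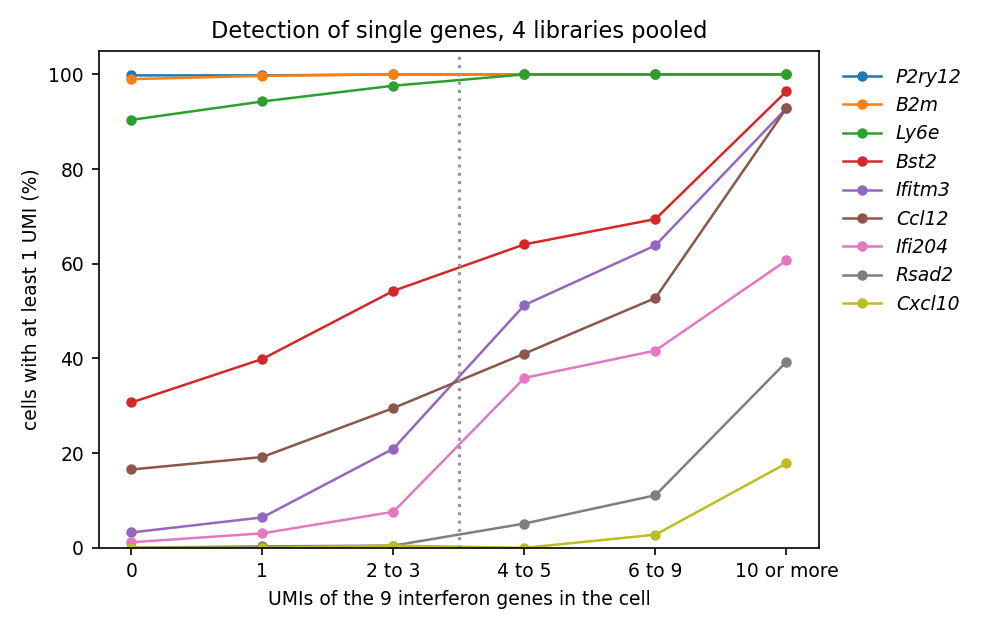
Share of cells with at least 1 UMI of 9 genes (y axis, %) by the cell's UMIs of the 9 interferon genes (x axis), 4 libraries pooled (11642, 980, 210, 39, 36 and 28 cells from left to right), with the dotted line at the rule's edge. Ccl12, Ifitm3 and Bst2 reach 92.9%, 92.9% and 96.4% at 10 or more UMIs, Rsad2 39.3%, and P2ry12 is found in 99.8% to 100% of cells.

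Members with fewer interferon-gene UMIs were also tested alone. With only the 72 members of 4 to 9 interferon-gene UMIs, an alternative added after seeing the data, edgeR called 30 genes higher and 1 lower. Ifi204 (4.60, adjusted p = 5.75e-08), Ifitm3 (3.49, adjusted p = 4.84e-14) and Slfn2 (2.69, adjusted p = 2.29e-11) were among them. Ccl12 passed with a log2 fold change of 2.41 (adjusted p = 8.79e-14), against 4.71 with all members.

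The label microglia was checked against its markers. P2ry12, Tmem119 and Cx3cr1 each had a UMI in 100 of 100 members, and in 99.1% to 99.7% of the other cells. Detection alone separates these cells little from others, since the 67 cells with 10 or more class II UMIs held P2ry12, Tmem119 and Cx3cr1 in 80.6%, 80.6% and 94% (median 3288 UMIs per cell, against 2596 in the members). The 18 identity genes summed to 84259, 81730.1, 79118 and 83329.7 CPM in the members, 84712, 85629.6, 83424 and 83882 CPM in the others and 27621, 56411, 23410.1 and 37498 CPM in the class II high cells, and 0 of 18 were called in either direction. The 12 listed transcription factors of microglia had 10 tested and 0 called. P2ry12, the receptor for ADP that guides process movement, stood at 4124, 4538, 4039.7 and 4061 CPM in the members and 5182, 5372, 5675 and 5511 CPM in the others (-0.37 ± 0.06 (SE), adjusted p = 4.3e-05). Each member value was below each value of the others, and the change was under the fold that was required. Its level was 3305 ± 976 CPM in cells with 10 or more interferon-gene UMIs and 5494 ± 215 CPM at 0. Tmem119 and Cx3cr1 stood at 3717, 2276, 2134 and 2950.5 and at 3609, 2996, 3913 and 2848 CPM in the members, with log2 fold changes of -0.12 and 0.07 that did not pass.

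A few members carried markers of border-associated macrophages. The 10 macrophage markers summed to 176, 1608, 1042 and 102 CPM in the members of replicates 1 to 4 and to 260.1, 245, 281 and 304 CPM in the others. Pf4 and Mrc1, which define these macrophages, had a UMI in 4 members each, all in replicates 2 and 3, and at 3 or more UMIs of the list stood 6 members (1, 4, 1 and 0) and 400 other cells (6.00% and 3.10%). Pf4 and Mrc1 were called (3.12, adjusted p = 0.00299 and 3.05, adjusted p = 0.00682) but were higher in 2 of 4 libraries and at 0 UMIs in the members of replicates 1 and 4. Apoe, a lipid carrier, was called at 1.42, adjusted p = 0.00736 with 502, 3818, 4345 and 263 CPM against 583, 607, 541 and 1199 CPM, higher in replicates 2 and 3. Without the cells of 3 or more macrophage-marker UMIs, an alternative added after seeing the data, 88 genes were higher and 3 lower, and Apoe had a log2 fold change of 0.15 and was not called. Ifitm3 and Ccl12 were then at 4.64 and 4.96. The part of these cells in the other results was not tested beyond this setting.

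Markers of most other cell types were low in the members, with the dendritic cell list as an exception. The 10 monocyte markers summed to 27.1, 14.7, 0 and 43.8 CPM in the members, and to 47.9, 12.4, 39.8 and 57.3 CPM in the others. Ly6c2 and Ccr2 were at 0 UMIs in the members, and Plac8 gave 6 of their 7 UMIs, with 1 UMI each in 6 members (6.0%, exact 95% interval 2.23% to 12.6%) against 0.682% of the others, a difference whose part in the results was not tested. Markers of T and NK cells, of neutrophils and of red cells were at 0 UMIs in the members. The 6 proliferation markers summed to 81.4, 44.1, 0 and 0 CPM in the members and 42.4, 43.8, 36 and 48.1 CPM in the others, with Top2a and Mki67 at 0 UMIs and Stmn1, which is not limited to dividing cells, at 5 and 6 of the 12 UMIs in replicates 1 and 2. Bst2 is also on the list of dendritic cell markers, of which 3 were tested and Bst2 alone rose. The 10 markers of this list summed to 2822, 1726, 2083 and 2658 CPM in the members and to 1699, 1717, 1742 and 1723 CPM in the others. Siglech, which had a UMI in 93.9% of the others, and Bst2 gave 431 and 251 of the members' 707 UMIs of the list. Neuron, oligodendrocyte, astrocyte, endothelial and B cell markers summed to 6.35 ± 12.7, 95.8 ± 53, 235 ± 64.3, 19.3 ± 16.9 and 48.1 ± 31.5 CPM in the members and to 1.78 ± 0.132, 76.8 ± 8.76, 246 ± 24.9, 24.7 ± 3.42 and 55.4 ± 2.68 CPM in the others. Cnp and Slc1a3 were the tested genes among them, and neither was called.

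The members were also set against signatures of other microglial states. The 25 exAM genes summed to 2727, 2533, 6707 and 4367 CPM in the members. The value of replicate 3 contains the single cell with Ccl4 and Ccl3, and these were the 2 of 14 exAM genes tested that were called higher. Without that cell replicate 3 stood at 2535 CPM, and replicate 4, in which the exAM genes were high in the other cells, then had the highest sum in the members. Among 25 genes of disease-associated microglia, 13 were tested and 1 was called, which was Apoe, described above. The list summed to 29646 ± 2233 CPM in members and 29172 ± 918 CPM in others. Of 20 lysosomal and phagocytic genes, 16 were tested and Fcgr1, a high-affinity antibody receptor that interferons induce, rose, at 1316, 800.4, 1372 and 818 CPM against 583, 549, 516 and 469 CPM (0.96 ± 0.12 (SE), adjusted p = 1.93e-07). Ctss and Ctsd, proteases of the lysosome, had log2 fold changes of 0.08 and -0.17 and were not called.

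Few genes were lower in the members. Tuba1a, an alpha-tubulin, stood at 176, 220.3, 152 and 131 CPM against 320.3, 346, 333 and 309.6 CPM (-0.86 ± 0.17 (SE), adjusted p = 0.000706), and its values did not overlap. The other 5 were Itpripl1 (-1.40, adjusted p = 0.0444), Ddit4, a stress-induced inhibitor of mTOR (-0.92, adjusted p = 0.0381), Dnajc8, a co-chaperone (-0.89, adjusted p = 0.0406), Hmgn1, a nucleosome-binding protein (-0.88, adjusted p = 0.027), and Rcsd1 (-0.68, adjusted p = 0.0485). Ddit4 stood at 109, 14.7, 127 and 131 CPM against 158, 57.2, 169 and 286 CPM, with replicate 2 low in both kinds of cell. All 6 were lower in 4 of 4 libraries. Of the 6, Tuba1a alone was called by DESeq2 and kept its call without any 1 replicate, while the other 5 each lost theirs without at least 2 of the 4 replicates. Tuba1a was also the gene called lower with the members of 4 to 9 UMIs (-0.88, adjusted p = 0.0057).

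A sum over few cells cannot separate a change in each member from a change in some of them. The shares of members with a UMI given above describe this for each gene, and for 43 of the 86 genes the call was kept without each replicate in turn.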

How the data were processed

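Single-cell RNA was measured in 4 libraries, 1 per mouse. The authors deposited UMI counts per gene and cell, whole numbers made with Cell Ranger 2.2.0 on mm10 (GRCm38) per the labels, with cells already called and no normalization. The 28692 gene rows were identical in all libraries. A cell was kept when it had 400 or more detected genes and no more than 10% of its UMIs in mitochondrial genes. Doublets were not called. Members and other cells were chosen as the report states. The members and gene lists were chosen with earlier results of these data known.

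Counts were summed per library over members and over other cells. CPM were computed with totals that leave out the 13 genes of the rule. edgeR 4.0.16 (quasi-likelihood F-test, TMM, R 4.3.3) was fitted with the library as a block, since both sums come from the same mouse, to genes whose mean over the 8 sums reached 50 CPM. p-values were adjusted over all 3096 genes by Benjamini and Hochberg, and folds are log2. The p-values set the difference between members and others of the same mouse against how it varied over the 4 mice. Differences between mice as such are taken up by the block. The variation was estimated with information shared across genes, so very small p-values do not rest on 4 pairs alone. DESeq2 1.42.0 and 20 other settings were alternatives. The fit was tested on simulated counts. Named genes were the rule's genes, the 15 that rose most and the up to 10 that fell most in all 4 libraries, listed genes with the highest level or largest change, and a set of upstream and identity genes. Genes of 1 list that are not listed by this rule are named where a count of 5 or fewer needed it. A few of these are not reported here. Promoters are RefSeq windows on GRCm38.p6, matched by symbol, for 27025 genes. Total counts per library were 5867333 to 11275195.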

Additional observations from a re-analysis of the deposited data

Results flagged for a closer look

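In 71 values per library, Dixon's range test (gap to the nearest value over the whole range, two-sided at 95%) set 1 library apart in 8. Chance alone does so in about 1 of 20 values.

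Of these, 3 were higher in the members of replicate 1 than in those of the other libraries. The summed level of class I presentation genes was 10744, 7519, 8029 and 7552 CPM in order of replicate (ratio 0.842), Oas1a stood at 217, 66.1, 76.2 and 58.4 CPM (ratio 0.888), and Ly6a at 434, 154, 102 and 146 CPM (ratio 0.842). Without replicate 1, Ly6a was still called higher, at a log2 fold change of 3.92, and Oas1a fell below the level for testing. Microglial transcription factors were lowest in replicate 1, at 3527, 4244, 4319 and 4324 CPM (ratio 0.901).

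P2ry12 in the members was highest in replicate 2, at 4124, 4538, 4039.7 and 4061 CPM (ratio 0.831). Ribosomal protein genes were lowest in replicate 4, at 91693, 91027, 90094 and 81066 CPM (ratio 0.849). Astrocyte markers were lowest in replicate 2, at 258, 139.5, 279 and 263 CPM (ratio 0.845). Neuron markers were at 0, 0, 25.4 and 0 CPM (ratio 1.0), which is 1 UMI in replicate 3.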

How the results depend on the processing

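The share of interferon-responsive cells (0.750%) was 0.335% after thinning to 1000 UMIs, 1.07% with 3 or more and 0.486% with 6 or more UMIs required, and 0.692% to 0.818% without any 1 replicate. The number of genes called (86, of which 80 were higher and 6 lower) was 51 with a mean of 100 CPM or more (46 higher), 131 with no filter beyond 1 UMI (15 lower, and a median log2 fold change of -0.49 over all genes, which shifts the split), and 31 with the members of 4 to 9 UMIs (30 higher, 1 lower). The number of lower genes was 1 with DESeq2, with members chosen on the Ifit genes alone and with at least 1000 genes per cell. It was 3 without the replicate block, with other cells matched on UMI count and without macrophage-marker cells. Leaving out 1 replicate gave 69 to 95 calls, 64 to 91 higher and 3 to 6 lower, with the lowest number of lower genes without replicate 2. Pairing came from the mouse, and without the block 72 genes were called, all of them among the 86. DESeq2 called 68. With the deepest 1% of cells left out, 94 were called. No call changed direction under any of 21 settings. Of the 86 genes, 43 were tested and called without each replicate in turn, and 20 were tested and called in all settings. The cause of these changes was not tested. Scaling to totals without mitochondrial and ribosomal protein genes moved the summed level of 7 lists in the members, microglial identity among them, by more than the spread between replicates. Depth limits the low genes most, since the members hold 318959 UMIs in all.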

Other observations

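Of the 80 genes that were higher in the interferon-responsive cells, 24 were on none of the lists. They are named here after their values were seen. Several are known as interferon-induced or as regulators of the response. Trim34a, a tripartite-motif protein, stood at 189.9, 58.7, 25.4 and 87.6 CPM in the members of replicates 1 to 4 and 20.1, 18.4, 19.5 and 18.9 CPM in the others (2.21 ± 0.48 (SE), adjusted p = 0.00244). Nmi, a partner of STAT proteins, changed by 1.46, adjusted p = 0.00984, Trafd1, a feedback inhibitor of innate signaling, by 1.31, adjusted p = 0.000191, and Sp110, a nuclear body protein related to Sp100, by 1.30, adjusted p = 0.000819. Each was higher in 4 of 4 libraries. Trim34a and Nmi averaged 19.2 and 35.4 CPM in the other cells and were tested only through the members, unlike Trafd1 and Sp110 (66.8 and 65.9 CPM). The call of Nmi was lost without replicate 2 and that of Sp110 without replicate 1. Trim34a rested on 1 UMI in the members of replicate 3 and fell below the level for testing without replicate 1.

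Others have known roles outside the antiviral response. Tspo, the mitochondrial protein used as a target of brain imaging for inflammation, stood at 217, 220.3, 305 and 161 CPM against 97.3, 106, 87.1 and 104 CPM (1.12 ± 0.21 (SE), adjusted p = 0.000243). Cd47, the surface signal that restrains phagocytosis through its receptor on macrophages, stood at 488, 359.8, 457 and 526 CPM against 259, 256, 288 and 253 CPM (0.77 ± 0.14 (SE), adjusted p = 0.00014). Neither overlapped between members and others, and neither lost its call without any 1 replicate. Apobec1, an RNA-editing deaminase, changed by 1.08, adjusted p = 0.00634, with its call lost without replicate 2, and Slc15a3, a lysosomal peptide transporter, by 0.67, adjusted p = 0.0248, with its call lost without replicate 1 or 3.

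Cells with 10 or more class II UMIs were kept out of the members by the rule. There were 67 of them, 10, 12, 7 and 38 in replicates 1 to 4. Of these, 6 (8.96%, exact 95% interval 3.36% to 18.5%) met the interferon part of the rule, 2 in replicate 3 and 4 in replicate 4.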
